A study of Mus musculus with 2 samples.

Results

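Genes of cell adhesion and extracellular matrix were listed with 46 of the 1483 peaks called for the transcription factor ISL1 in sinoatrial node cells. These 46 peaks belonged to 30 genes of the 1003 in the list. The 46 were found by gene symbol alone. The symbols covered cadherins and protocadherins (Cdh, Pcdh), immunoglobulin-type adhesion molecules (Ncam, Cntn, Cadm), synaptic adhesion molecules (Nrxn, Nlgn, Lrrtm), integrins (Itga, Itgb) and tetraspanins (Tspan). They also covered collagens, laminins, fibrillins, fibulins and glypicans (Col, Lam, Fbn, Fbln, Gpc), the Adam and Adamts proteases, genes named Lrrc, and Fap. No cut-off on score or distance was set. The symbols, with Fap as a single gene, were however chosen with earlier results of these data known. The authors listed each peak under the gene whose transcription start site (TSS) is nearest, which need not be the gene the peak lies in or acts on.

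The chromatin came from hearts of ICR mice at postnatal day 1 to 3 that carried the Hcn4-H2BGFP reporter, a green fluorescent histone made where the pacemaker channel gene Hcn4 is active. Digested node tissue was sorted for green fluorescence. The series had 1 ISL1 immunoprecipitate and 1 input DNA, both from such cells, and only the peak list of the immunoprecipitate was analysed here. The number of animals pooled was not given, there was no replicate, and a peak list cannot be checked for markers of cell type. Every value below therefore describes this 1 list.

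The sinoatrial node is a small cluster of pacemaker cells embedded in dense connective tissue and coupled only weakly to the working atrium. Cadherins join neighbouring cells through calcium-dependent contacts between their outer domains, and integrins tie cells to collagens and laminins of the matrix. Neurexins, neuroligins, contactins and NCAM proteins are best known from contacts between neurons. ISL1 is a LIM-homeodomain protein that is needed in heart progenitors, motor neurons and pacemaker cells.

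The top score of the list, 84.8, stood apart from the next, 52.0, and the highest of the 46 peaks was tied for rank 7. The authors' peak score, a number with no stated scaling, ran from 9.58 to 39.7 among the 46, with a median of 16.4 (interval of the median from order statistics 15.1 to 19.2). Over all 1483 peaks scores ran from 8.21 to 84.8, with a median of 15.1 and an upper quartile of 17.8. Of the 46, 20 (43.5%, exact Clopper-Pearson 95% interval 28.9 to 58.9) reached that quartile, against 29.4% of all peaks, a share above 25% because scores are tied. Scores moved in whole steps of 1.37. If 1 step is 1 read, the lowest member score rests on 7 reads (exact Poisson 95% interval 2.81 to 14.4) and the highest on 29 (19.4 to 41.6). Most members therefore cannot be ranked against each other at this depth, and all intervals cover counting error only. They also treat peaks as independent, although 26 of the 46 peaks share their gene with another.

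Most of these peaks lay inside genes. By the authors' annotation 29 of 46 were intronic (63.0%, 47.5 to 76.8), 16 lay between genes (34.8%, 21.4 to 50.2) and 1 was exonic. In the whole list 40.8% were intronic and 53.8% lay between genes. The intron belonged to the listed gene for 26 of the 46 (56.5%, 41.1 to 71.1), against 28.5% of all peaks. The difference was not tested, and neither share was corrected for gene length or spacing. The intron's gene and the listed gene were compared by symbol across different annotations. A gene named differently in them would not match, which can lower the share of all peaks.

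None of the 46 peaks was annotated as a promoter or lay within 1 kb of a TSS. A count of 0 in 46 allows a share of up to 6.52% (3 counts of the total), above the 3.24% of all peaks that were promoter peaks, so avoidance of promoters was not detectable. Within 10 kb there were 3 member peaks, among them those of Gpc3 and Pcdh7, and within 100 kb there were 25 (54.3%, 39.0 to 69.1, against 55.4% of all). The median distance to a TSS was 81.0 kb, beside 83.4 kb for the list. Of the 46, 34 lay downstream of the nearest TSS (73.9%, 58.9 to 85.7), against 58.8% of all peaks, and 24 of these 34 were in an intron of the listed gene.

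**Figure D1:**
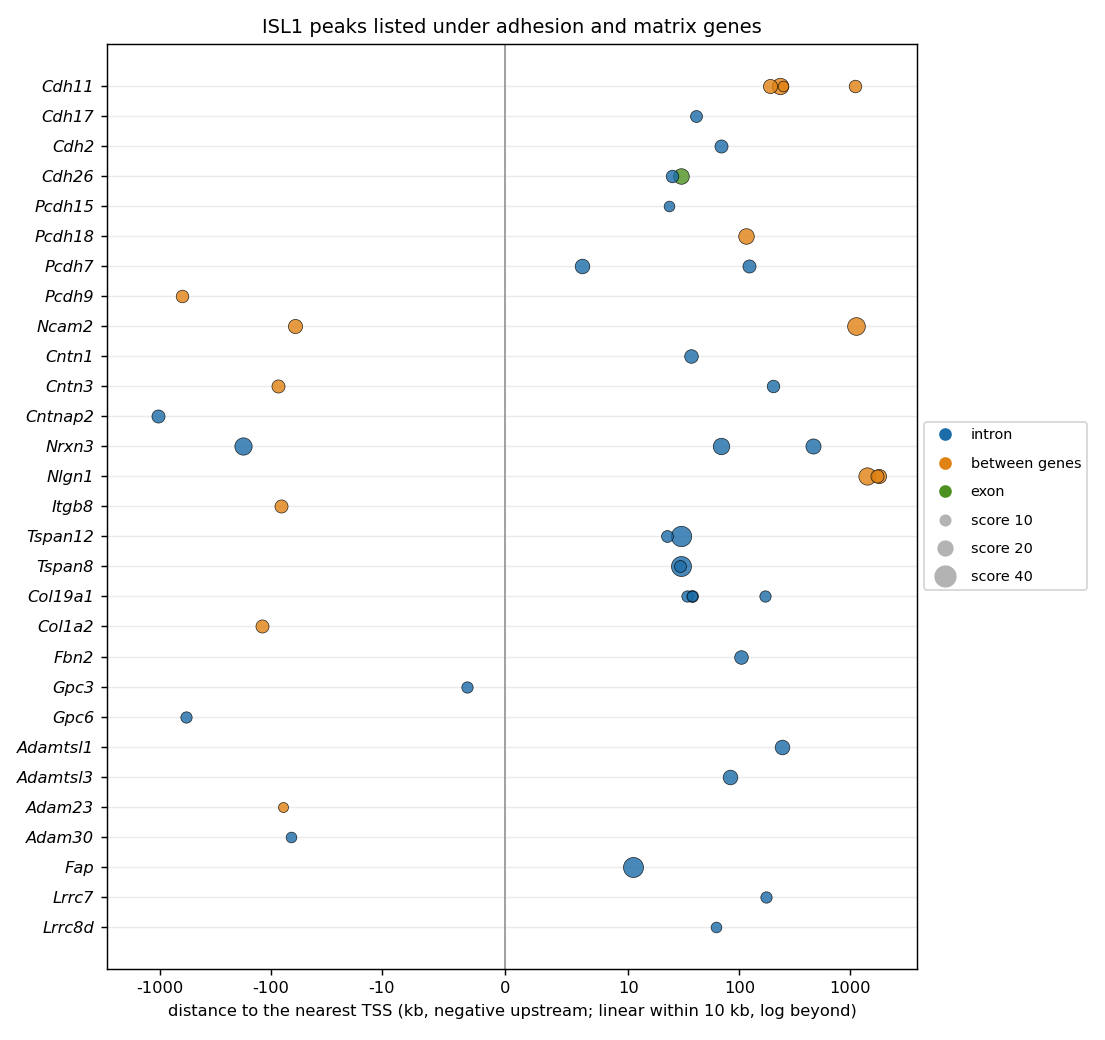
Signed distance from 45 of the 46 peaks to the nearest TSS (x axis, kb, negative upstream; linear within 10 kb and logarithmic beyond), with 1 line per gene. Colour gives the authors' annotation and the area of a point its score; 34 peaks sit right of the TSS, and the closest to it is that of Gpc3 at 3.09 kb upstream.

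Some peaks lay very far from any start site. Beyond 1000 kb from any TSS the list had 30 peaks (2.02%), and 6 of them were members (13.0% of 46, 4.94 to 26.3). They were the 3 Nlgn1 peaks and 1 each of Cdh11, Cntnap2 and Ncam2, and all 4 genes encode surface adhesion molecules. The difference between the shares was not tested, and 3 of the 6 peaks share a gene.

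Classical and related cadherin genes had 8 peaks under 4 of the 28 Cdh genes annotated in the RefSeq gene table (14.3%, beside 3.65% of all protein-coding genes at any distance). Cdh11, which encodes the cadherin of mesenchymal cells and osteoblasts, had 4. All of the 4 lay between genes and downstream of the TSS, and the next protein-coding gene on that side in the RefSeq table is another cadherin gene, Cdh8. A peak of score 26.0 (15.7 to 40.6 if steps are reads) at chromosome 8 105077652 to 105077796 (mm9, as are all coordinates here) lay 231 kb from the TSS. At 189 kb there was a peak of 19.2 (105120264 to 105120408), and at 247 kb a peak of 10.9 (105061945 to 105062089). These 3 thus fell within 58.3 kb. The other Cdh11 peak was 1.10 Mb from the TSS (104205311 to 104205455, score 15.1) and overlapped an MTEa repeat of the LTR class.

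Cdh2, the gene of N-cadherin, the main cadherin of heart muscle junctions, had 1 peak in intron 2 of 15. It lay 68.1 kb downstream of the TSS at chromosome 18 16899354 to 16899498, with a score of 16.4 (8.48 to 28.7). Its focus ratio, a fraction deposited for each peak, was 0.526 and the lowest of the 46, whose median was 0.759. Cdh26, a cadherin of epithelia, had the only exonic peak, with a score of 23.3 in exon 5 of 15 (chromosome 2 178194814 to 178194958). A further Cdh26 peak of 15.1 in intron 3 of another transcript lay 5.16 kb from it. The Cdh17 peak, in intron 11 of the gene of liver-intestine cadherin, had a score of 13.7. It lay 94.2 kb from a promoter peak of the GTPase gene Gem (19.2).

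Protocadherins are cadherin-type surface proteins that are most diverse in the nervous system, where they take part in recognition between neurons. Of 69 Pcdh genes 4 were listed with a peak (5.80%, beside 3.65% of all protein-coding genes), and 2 of these within 100 kb (2.90%, near the 2.48% of all). Pcdh7 had 2 peaks in intron 1 of 2, at 6.20 kb from the TSS (chromosome 5 58115385 to 58115529, score 20.5) and at 123 kb (58231953 to 58232097, 16.4). The highest peak of the family was that of Pcdh18, with a score of 23.3 between genes, 115 kb downstream (chromosome 3 49446405 to 49446549). Pcdh9 had 1 of 15.1 at 631 kb upstream. Pcdh15, a gene of the tip links of hair cells, was listed with 1 of 10.9 in intron 1.

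The Ncam genes and the Cntn and Cntnap genes had 6 peaks together. Ncam2, which encodes a neural cell adhesion molecule of olfactory axons, had 1 of score 30.1 (18.9 to 45.6) between genes at chromosome 16 82313351 to 82313495, 1.11 Mb downstream of the TSS. It had a further peak of 19.2 at 60.7 kb upstream (81140137 to 81140281). The upstream peak overlapped an RLTR22_Mus repeat, an endogenous retrovirus element of the ERVK class. Contactins are surface proteins anchored by lipid, and CNTNAP2 is a neurexin-like partner of theirs. Cntn1 had a peak of 17.8 in intron 1 of 23, and Cntn3 had 1 of 15.1 in intron 10 of 21 and 1 of 16.4 at 85.8 kb upstream. The Cntnap2 peak (16.4, chromosome 6 46152127 to 46152271) lay in intron 9 of 23 of the gene. It was nevertheless given as 1.04 Mb upstream, since it was measured from the TSS of another Cntnap2 transcript. Of 13 annotated Cntn and Cntnap genes 3 were listed (23.1%, beside 3.65%). None of the 4 Cadm genes was.

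Neurexins and neuroligins bind each other across the synapse, the neurexin usually on the axon side. Of the 3 genes in each family 1 was listed (33.3%, beside 3.65% of all protein-coding genes). These were Nrxn3 and Nlgn1, each with 3 peaks. Within 100 kb the share stayed at 33.3% for neurexins and was 0 for neuroligins, beside 2.48% of all. The 3 Nrxn3 peaks had scores of 26.0, 28.7 and 21.9 and lay in introns 3, 14 and 18 of 19. They stood at chromosome 12 90100536 to 90100680, 90873633 to 90873777 and 91509480 to 91509624, a span of 1409 kb within a single gene. The lowest of these scores was above the upper quartile of the list (17.8). The nearest TSS differed among them: the peak in intron 3 was measured from the start of 1 transcript (67.7 kb downstream). The other 2 were measured from that of another, at 177 kb upstream and 459 kb downstream.

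The Nlgn1 peaks all lay between genes, and 2 of them were the farthest from a TSS in the whole list. Their scores were 28.7 at 1.42 Mb (chromosome 3 24634057 to 24634201), 16.4 at 1.73 Mb (24323727 to 24323871) and 19.2 at 1.83 Mb (24224926 to 24225070). The highest overlapped an ORR1D1 repeat of the LTR class. Naaladl2 is the next protein-coding gene on that side in the reference table. At such distances the listing under Nlgn1 says which annotated start is nearest and little else.

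Integrins are the paired receptors through which cells hold the matrix. Of 31 Itga and Itgb genes (symbols such as those of integrin-binding proteins included) 1 was listed (3.23%, beside 3.65% of all protein-coding genes). Itgb8, whose product binds and activates latent TGF-beta, had a peak of score 16.4 at 80.4 kb upstream (chromosome 12 120557033 to 120557177). Tetraspanins, small proteins with 4 membrane passes that group integrins and other receptors in the membrane, were listed for 2 of 20 genes (10.0%).

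The tetraspanin peaks included the highest of the 46. Tspan12, a coreceptor of norrin signalling through FZD4 in vessels, had a peak of score 39.7 (26.6 to 57.0), tied for rank 7 of the list, in intron 5 of 8 at chromosome 6 21772777 to 21772921. In the same intron, 7.30 kb away, lay a peak of 13.7 (21780077 to 21780221). Tspan8, found in epithelia and in tumour cells, had a peak of 38.3 (25.5 to 55.4) in intron 8 of 8 at chromosome 10 115284161 to 115284305. A peak of 13.7 lay 0.843 kb from it. Both genes thus had 1 high and 1 low peak close together in the same intron, and in both the interval of the higher score did not overlap that of the lower (6.56 to 25.2).

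**Figure D2:**
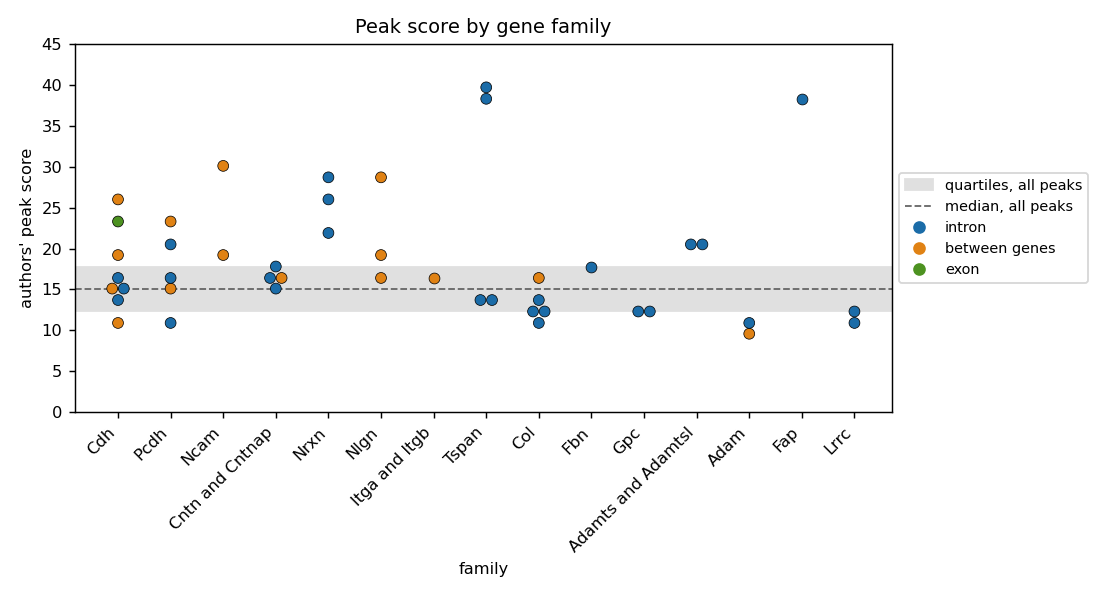
The authors' peak score (y axis) of 45 of the 46 peaks by gene family (x axis), coloured by annotation, with the quartiles (12.3 to 17.8, grey band) and median (15.1, dashed) of all 1483 peaks. The 3 peaks above 35 belong to Tspan12, Tspan8 and Fap, all in introns, and all 3 Nrxn3 peaks lie above the grey band.

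Collagen, laminin, fibrillin and glypican genes had 9 peaks under 6 genes. Their median score was 12.3, beside 16.4 for all 46 members and 15.1 for the list. Of the 9, 2 reached the upper quartile of the list, against 29.4% of all peaks, and the difference was not tested. The 9 include 4 peaks of the same gene, Col19a1. Col19a1, a collagen of basement membrane zones that is active in developing muscle, had 4 peaks, all intronic. In intron 4 of 50 lay 3 of them within 3.77 kb, with scores of 10.9 (chromosome 1 24556611 to 24556755), 13.7 (24556996 to 24557140) and 12.3 (24560384 to 24560528). The first 2 were 0.385 kb apart. The other Col19a1 peak, of 12.3, lay in intron 14 (24424101 to 24424245). Col1a2, a chain of type I collagen, the main fibre of cardiac scar and connective tissue, had 1 peak of 16.4 at 119.8 kb upstream (chromosome 6 4335858 to 4336002). Of 44 Col genes these 2 were listed (4.55%), a share near the 3.65% of all protein-coding genes.

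Fbn2, the gene of a microfibril protein of embryonic tissue, had 1 of 17.8 in intron 11 of 64 (chromosome 18 58266131 to 58266275), on a DNA repeat. Glypicans carry heparan sulfate on the cell surface and hold growth factors there. Gpc3 had a peak of 12.3 at 3.09 kb upstream, the closest of the 46 to a TSS, inside the last intron of the noncoding A630012P03Rik (chromosome X 49970173 to 49970317). That peak was the only member on chromosome X, where the list had 12. The Gpc6 peak, also 12.3, lay 577 kb from the TSS in intron 7 of 7 of the adjoining glypican gene Gpc5. None of the 4 fibulin genes was listed.

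The protease group held a high peak at Fap and low ones at the Adam genes. FAP is a membrane serine protease that cleaves collagen fragments and marks activated fibroblasts. Its peak of 38.3 (25.5 to 55.4), in intron 2 of 25 at chromosome 2 62401152 to 62401296, lay 10.9 kb downstream of the TSS. A peak of 10.9 listed under Ifih1, a viral RNA sensor next to Fap, was 58.3 kb away. A peak of 10.9 was also listed under Dpp4, the protease most similar to Fap, in its intron 14 (chromosome 2 62197797 to 62197941). Adamtsl1 and Adamtsl3, which encode matrix proteins related to ADAMTS proteases but without their protease domain, each had an intronic peak of 20.5 (11.5 to 33.9). These lay in intron 14 of 27 at chromosome 4 85940858 to 85941002 and in intron 3 of 29 at chromosome 7 89565742 to 89565886.

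The 2 Adam genes were Adam30 and Adam23. The Adam30 peak of 10.9 lay in intron 5 of 33 of the receptor gene Notch2, 65.5 kb upstream of Adam30. That of Adam23, an adhesion protein of neurons without protease activity, had the lowest score of the 46 (9.58) and overlapped an LTR16A repeat. The Lrrc symbol marks a shared leucine-rich repeat and not a common role in adhesion. Of 68 such genes 2 were listed (2.94%, near the 3.65% of all protein-coding genes): Lrrc7, a scaffold of the postsynaptic density (12.3, intron 3, on an RLTR22_Mur repeat), and Lrrc8d, a subunit of volume-regulated anion channels (10.9, intron 2).

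Counted by gene, 30 of the 372 protein-coding genes whose symbols fit were nearest to a peak at any distance (8.06%), beside 3.65% of all 21900 protein-coding genes. Within 100 kb there were 20 (5.38%), beside 2.48%. Of the 19 families 16 were listed. The surface adhesion receptors, from cadherins to integrins, accounted for 15 genes of 157 (9.55%), and the leucine-rich repeat genes for 2 of 68. Genes differ in length and in the space around them, and no share was corrected for either.

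**Figure D3:**
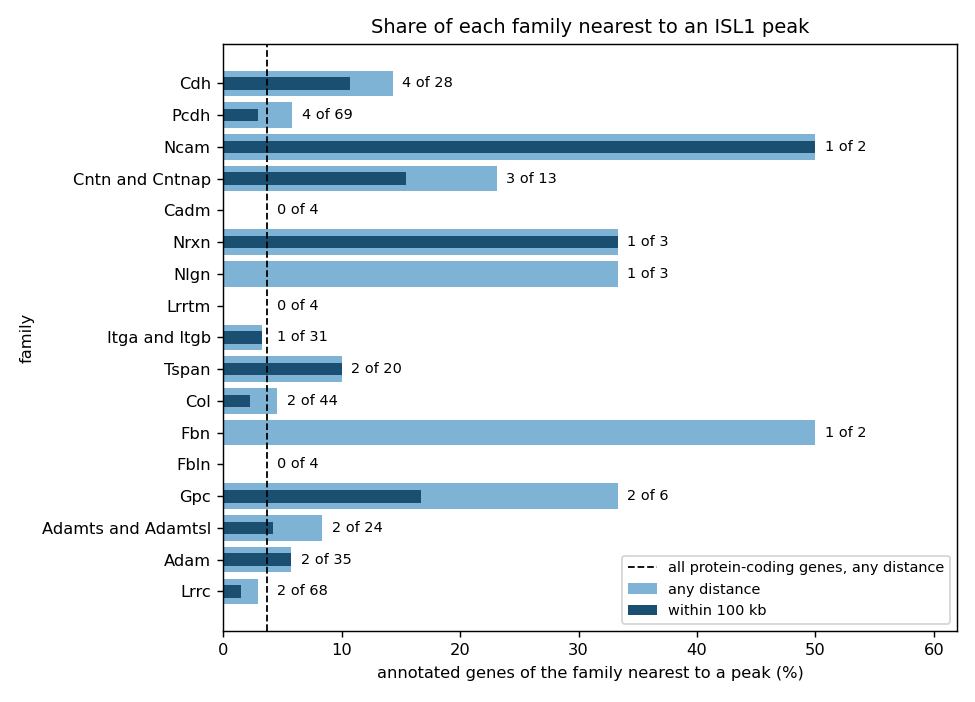
Share of the annotated genes of each family that were nearest to a peak (x axis, %), at any distance (pale bars) and within 100 kb (dark bars), with counts at the bars; Fap, a single gene, and the laminins are left out. The dashed line is the 3.65% of all protein-coding genes; the bars at 50% stand for 1 gene of 2.

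Of the 30 genes 10 had 2 or more peaks (33.3%, beside 27.4% of all nearest genes). Their arrangement took several forms. Peaks of Tspan8, Col19a1, Cdh26 and Tspan12 stood within 10 kb of each other, and 9 of the 46 peaks (19.6%, 9.36 to 33.9) had another that close, against 13.4% of all peaks. Those of Nrxn3, Ncam2 and Nlgn1 were at least 98.8 kb apart. Cdh11 had peaks 15.7 and 857 kb apart. Peaks of genes with several had a median of 17.8 beside 16.4 for genes with 1.

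**Figure D4:**
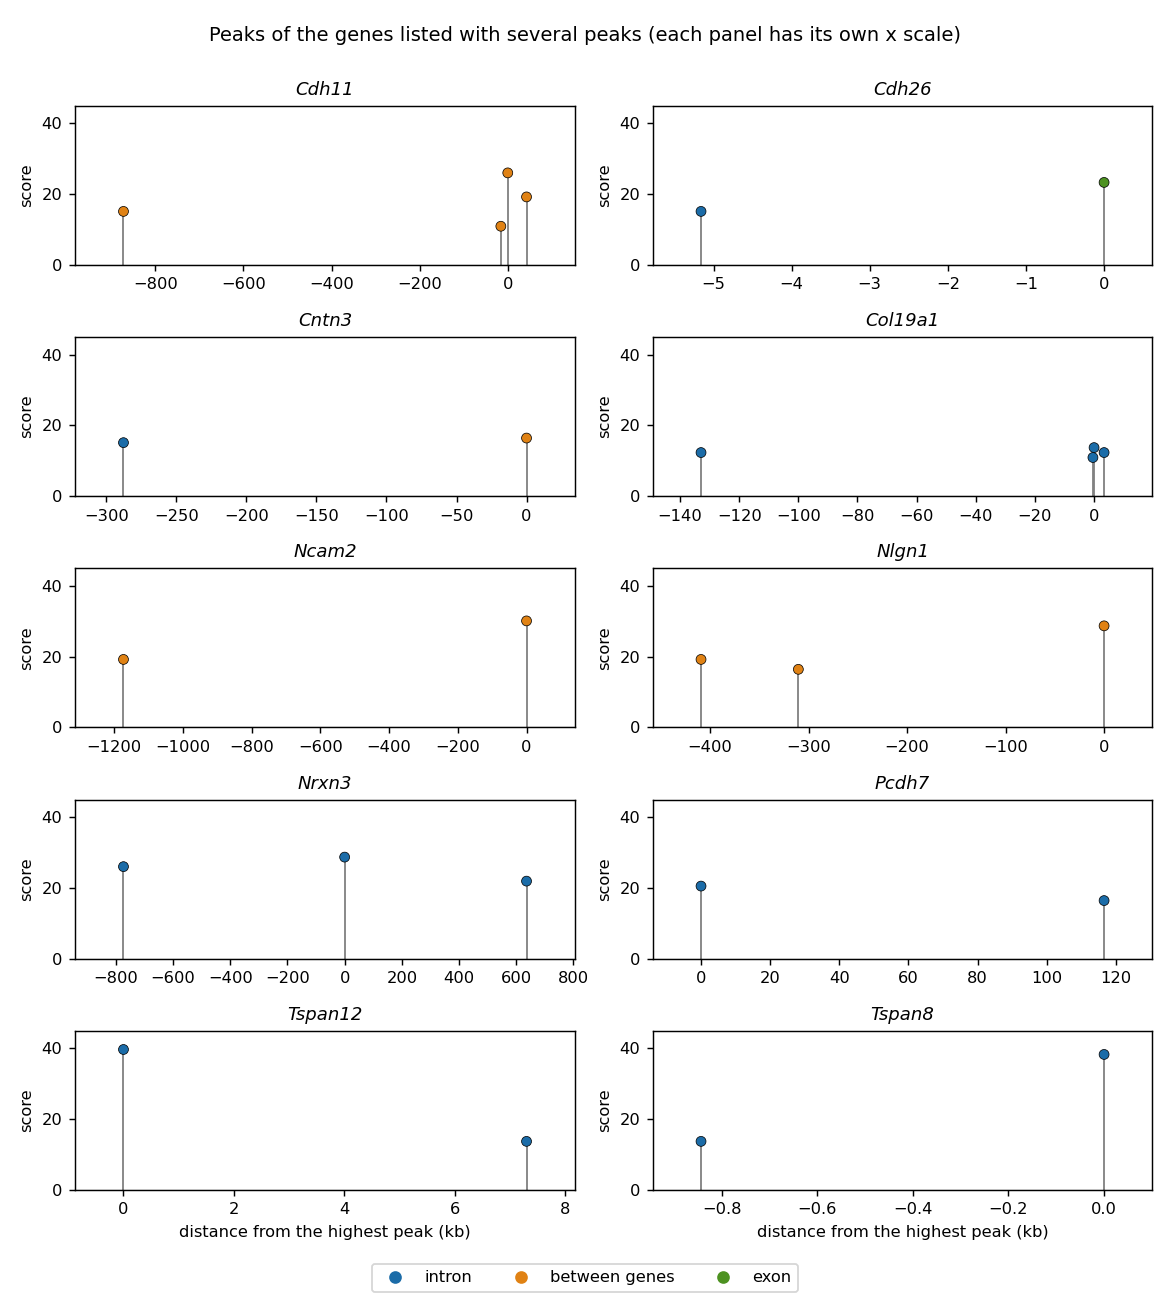
Score (y axis) and distance in kb from the gene's highest peak (x axis, own scale in each panel, in the direction of rising chromosome coordinate) for the 10 genes with 2 or more peaks. Points are coloured by annotation; Tspan8 spans 0.843 kb and Nrxn3 1409 kb.

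Repeats carried 6 of the 46 peaks (13.0%, 4.94 to 26.3), against 7.82% of all peaks. Of the 6, 5 were LTR elements, at Nlgn1, Ncam2, Cdh11, Lrrc7 and Adam23 (10.9% of 46, 3.62 to 23.6), beside 2.76% of all peaks. The 9 peaks of the list on RLTR22 elements included those of Ncam2 and Lrrc7. How well short reads can be placed on these copies was not tested.

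Assignment by nearest TSS left out peaks that lay inside genes of the same families but were listed under another gene. There were 8, in introns of 6 genes. The highest lay in intron 32 of 63 of Lama2, the laminin chain of muscle basement membrane, with a score of 38.3 (25.5 to 55.4) at chromosome 10 26860316 to 26860460, and was listed under Arhgap18, 368 kb away. Cadm2, a synaptic adhesion gene of the brain, held 2, with scores of 26.0 in intron 1 and 12.3 in intron 3 (chromosome 16 66996704 to 66996848 and 66841992 to 66842136). Col25a1, a membrane collagen of neurons, held 2 of 17.8 and 9.58 that were listed under Etnppl. Pcdh15 (16.4, apart from its listed peak), Col23a1 (12.3) and Adamts3 (10.9) held 1 each. Of the 18 highest peaks of the list (ranks 1 to 10 with ties), 3 were listed under the families (16.7%, beside 3.10% of all peaks) and 4 lay in the body of such a gene (22.2%, beside 2.43%). These shares were not tested, and the set was chosen after its values were seen. Both counts also include Fap, which was chosen as a single gene with earlier results of these data known.

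Genes that act beside these families were also looked up, in lists chosen with earlier results of these data known. Their shares may reflect that choice, were not tested, and were not corrected for gene length or spacing. Of 20 cell junction genes 2 were listed (10.0%, beside 3.65%), both with products that bind cadherin tails. Ctnnd2 had 1 peak of 12.3 in intron 2 and Pkp4 1 of 15.1 in intron 3, and neither was within 100 kb of the TSS. None of the 15 genes of the integrin adhesion machinery, such as talin, FAK and ILK genes, was listed (0 of 15, which allows up to 20%). Of 31 other neural adhesion genes 10 were listed (32.3%, beside 3.65%), and 2, Kirrel3 and Slitrk6, within 100 kb (6.45%, beside 2.48%). The FLRT genes encode guidance and adhesion proteins that bind latrophilins and UNC5 receptors. Flrt3 had a peak of 24.6 in an intron of Macrod2, 655 kb upstream. Flrt2 had 4 between genes at 210.0 to 521 kb upstream, with scores of 23.3, 17.8, 12.3 and 10.9. The latrophilin genes Lphn2 and Lphn3 had peaks at 682 kb or farther, with scores of 10.9 to 13.7. Chl1, next to Cntn3 in gene order, had 1 of 16.4. The highest Slitrk score was 15.1, at Slitrk1 and at Slitrk2.

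Of 36 other matrix genes 5 were listed (13.9%), 4 of them within 100 kb (11.1%, beside 2.48%). Frem1, a protein of the epithelial basement membrane, had a peak of 24.6 at 28.3 kb upstream (chromosome 4 82726268 to 82726412). Eln, the elastin gene, had 1 of 19.2 at 41.2 kb upstream, and Tnc, the gene of tenascin-C, 1 of 17.8 at 191 kb. Frem2 and the proteoglycan gene Spock1 each had 1 of 16.4 in intron 2. Among 20 other matrix enzymes and inhibitors 3 were listed (15%, beside 3.65%): Dpp4, named above, the hyaluronan synthase gene Has2 (15.1 at 80.2 kb upstream) and the metalloprotease gene Tll1 (10.9). The fibronectin, periostin, versican, nidogen and Mmp genes of these lists were not.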

How the data were processed

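Sorted sinoatrial node cells were crosslinked with 2 mM disuccinimidyl glutarate and 1% formaldehyde, per the labels' protocols. Bowtie, HOMER and mm9 are named per the submitters' processing notes, without versions. Per the file headers, the authors annotated the peaks with HOMER on mm9. The deposited peak score has no stated scaling, the deposited focus ratio is a fraction, and the distance runs to the nearest TSS. Peak caller settings and total reads: not given in the sources used here.

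Members were matched by symbol, and 30 of 30 were found by Entrez identifier in a RefSeq table (GRCm38.p6). That table gave names, family sizes, gene order, host genes by transcript, and the set of all protein-coding genes used for comparison. Its build is not mm9, so no distance was taken from it. Its genes need not be those available when the peaks were annotated. All 122 partner genes matched. With 1 library in each group no test between samples was possible. Shares carry exact Clopper-Pearson 95% intervals, scores exact Poisson ones if 1 step is 1 read, and medians order-statistic ones. The members and lists were chosen with earlier results of these data known. The score step, the share intervals, the merging of peaks and the symbol matching were tried on simulated or made-up input. The other calculations were not. The software was Python 3.11.15, pandas 2.3.3 and scipy 1.17.1.

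Genes were named when among the 15 highest member peaks with ties, with 3 or more peaks, within 10 kb of a TSS, highest in their family, or with peaks within 50 kb of each other, and up to 6 partner genes per list, with ties. The remaining 8 members, host genes, neighbours and partner genes that complete a count were named with values in view. No mm9 genome was used and no member peak lay within 300 bases of a TSS, so the planned motif search had no promoter to search. 1 member peak counts in the totals but is not reported here. Alternatives were score cut-offs, merging of peaks within 1 kb, removal of repeats, fewer families, host genes and a distance limit.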

Additional observations from a re-analysis of the deposited data

How the results depend on the processing

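No replicate exists, so no value here carries variation between animals or preparations. If 1 score step is 1 read, a peak of median score rests on few reads. The 7 shares and medians of the 46 peaks were recomputed under the alternatives, giving 41 values, of which 38 stayed inside the main 95% interval. The 3 outside came from the stricter cut-off at the 75th percentile. There the adhesion and matrix genes had 4.59% of peaks (main 3.10%) and made up 4.29% of the nearest genes (main 2.99%). Their median score was 22.6 (main 16.4), which follows from the cut-off itself. Most alternatives keep a part of the same 46 peaks and the intervals are wide, so the count of 38 is no independent check. At or above the list's median score, 51.6% of member peaks were intronic (main 63.0%) and 45.2% lay between genes (main 34.8%). The intronic and between-gene shares of all peaks were not recomputed. Counting the gene whose body holds a peak gave 52 peaks (3.51%). Keeping only the highest peak of each gene, an alternative chosen after seeing the data, gave a median score of 17.1 and 60.0% within 100 kb. That choice itself favours a higher median score. No paired analysis was possible because the series has 1 library in each group.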
